A study of Glycine soja and Glycine max with 13 samples.

Results

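The 150 genes described here are those whose transcript levels most closely followed Glyma.03G163500 across the seeds of 13 soybean lines. Glyma.03G163500, called the anchor here, is 1 of 8 identifiers taken from published soybean work as genes of the storage proteins glycinin and β-conglycinin, an assignment not checked against an annotation here. The genes were chosen by their measured values: of 43517 features in the count table, 22065 averaged at least 5 CPM (counts scaled to a common library total), and the 150 with the highest Spearman rank correlation (rho) with the anchor over all 13 lines were taken. The anchor itself and 7 other storage protein identifiers were left out. The relation with the anchor is therefore how the genes were selected and is given as a description, with no test.

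The cultivated group held 6 lines of Glycine max, named df3, df12, df14, df17, df36 and df43. The wild group held 7 lines of Glycine soja, the wild ancestor of the crop, named ys1, ys16, ys17, ys23, ys26, ys29 and ys34. Plants of both groups grew in the field, seeds were taken 13 days after flowering in every line, and the study's title names genes related to seed weight. Each line gave 1 library from a stranded mRNA kit, so the error within a group is the spread between lines. The number of plants or seeds behind a library, and any batch, are not among the labels.

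A developing legume seed passes from a phase of cell division into seed filling, when the embryo takes up sugars and amino acids and lays down storage proteins, oil and carbohydrate. Glycinins and β-conglycinins are the main soybean storage proteins, and their transcripts are known to build up steeply as filling begins. Kunitz trypsin inhibitors, lectins, lipoxygenases and the P34 protein also accumulate in soybean seeds, and seed-type oleate desaturases turn oleic into linoleic acid in the seed oil. No stage of filling was recorded for these seeds beyond the days after flowering, which were the same in all lines. The 150 genes are therefore called by what chose them, genes that follow the anchor, and not by a stage.

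No identifier in the count table was matched to a product: 0 of 43517 matched the RefSeq gene table of the Glycine soja assembly ASM419377v2. Roles are given only at the level of short lists of published identifiers, which were not checked against an annotation here. Sequences and markers of single seed tissues were not used for the same reason. In bulk seed RNA, fewer cells of a type and less RNA per cell cannot be told apart.

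Totals ran from 12668664 counts in df3 to 26044036 in df36, at which 3 counts stood for 0.115 to 0.237 CPM. Such limits take in counting error alone. The 8 most abundant features, none of them among the 150 genes or the 8 storage protein identifiers, took 15.8% to 39.2% of a line's counts, most in ys34 and df3. Across the 13 lines the rho of the summed level of the 150 genes was -0.18 with total counts and -0.31 with the share of those 8 features. With the 8 features removed from the totals, 121 of the 150 genes were chosen again and the summed level differed 17.9-fold between its highest and lowest line, beside 23.0-fold with them. The part of total counts was not tested.

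The anchor set a wide scale. Its level was lowest at 0.983 CPM in df14, had a median of 334 CPM and was highest at 13103 CPM in df12 among cultivated lines. Among wild lines it was lowest at 6.01 CPM in ys16, had a median of 1434 CPM and was highest at 11758 CPM in ys1. Both groups thus held lines at either end, and their ranges overlapped over nearly the whole scale. In rising order the cultivated lines were df14, df36 (11.9 CPM), df3 (144 CPM), df43 (524 CPM), df17 (1066 CPM) and df12. The wild lines were ys16, ys29 (6.82 CPM), ys34 (7.17 CPM), ys17 (1434 CPM), ys26 (5624 CPM), ys23 (6498 CPM) and ys1. No wild line lay between 7.17 and 1434 CPM, where df36, df3, df43 and df17 did.

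The 150 genes together took 0.342% of counts in the lowest cultivated line, df14, a median of 0.865% and 5.07% in the highest, df12. In wild lines they took 0.221% in ys34, a median of 1.32% and 3.85% in ys23. The share was thus 23.0 times as large in df12 as in ys34, and 14.8-fold and 17.4-fold apart within cultivated and within wild lines. Cultivated lines averaged 1.58% ± 1.76 (SD, n = 6), and 1.66% ± 1.53 was the average of wild lines (SD, n = 7), so the spread within either group was about as large as its mean. Among cultivated lines df12 stood alone, at 50661 CPM summed over the 150 genes, while the next, df17, stood at 16710.4 CPM.

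**Figure D1:**
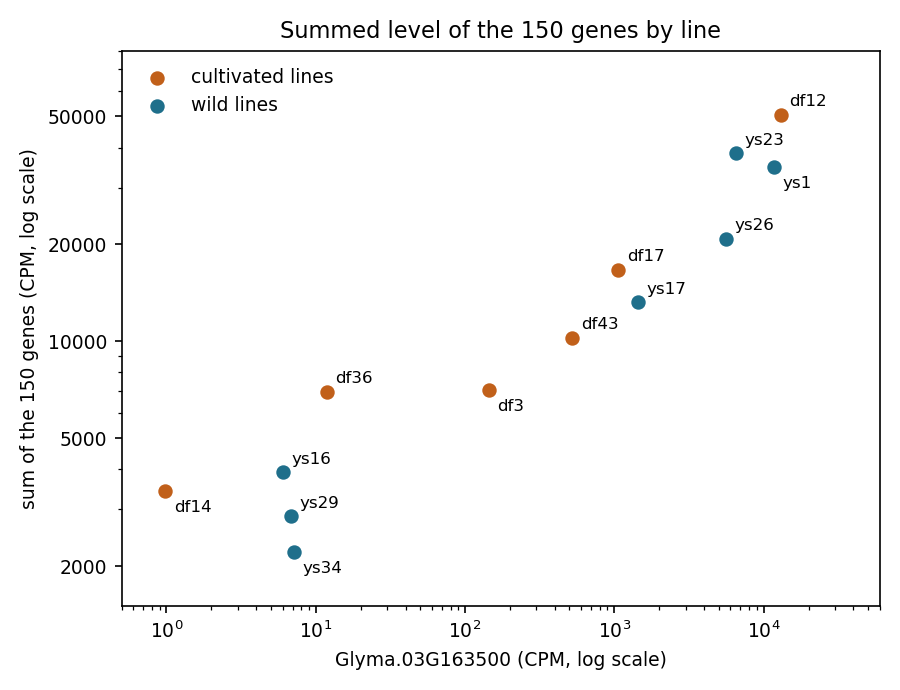
Summed level of the 150 genes (CPM, log scale) against the level of Glyma.03G163500 (CPM, log scale), 1 point per line, cultivated lines in orange and wild lines in blue. The sum runs from 2207 CPM in ys34 to 50661 CPM in df12, over a far narrower fold range than the anchor, and df36 and df3 have nearly the same sum.

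The 150 genes spanned less than the anchor did. Between df12 and df14 the anchor differed 13325-fold, the sum of the 150 genes 14.8-fold and the median gene 7.89-fold. Between ys1 and ys34 the anchor differed 1641-fold, the sum 15.8-fold and the median gene 11.2-fold. In each of these pairs of lines all 150 genes were higher in the line with more anchor. On a log2(CPM + 1) scale the median gene was 1.18 times as high for each doubling of the anchor, and the 150 ranged from 1.03 to 1.80 times.

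At the low end the order of the lines for most of the 150 genes was not the order of the anchor. The anchor was lowest in df14, at 0.983 CPM against 7.17 CPM in ys34, yet 119 of the 150 genes were lower in ys34 than in df14. Their sum was 3423 CPM in df14 and 2207 CPM in ys34. Of the 150 genes, 87 had their lowest level in ys34, 25 in ys29, 16 in df14, 13 in ys16, 8 in df36 and 1 in df3. Between df3 and df36 the anchor differed 12.1-fold, while the sum differed 1.01-fold and 93 of 150 genes were higher in df3. At the top, 90 genes were highest in df12, 30 in ys23 and 28 in ys1, with 1 each in ys17 and ys26.

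**Figure D2:**
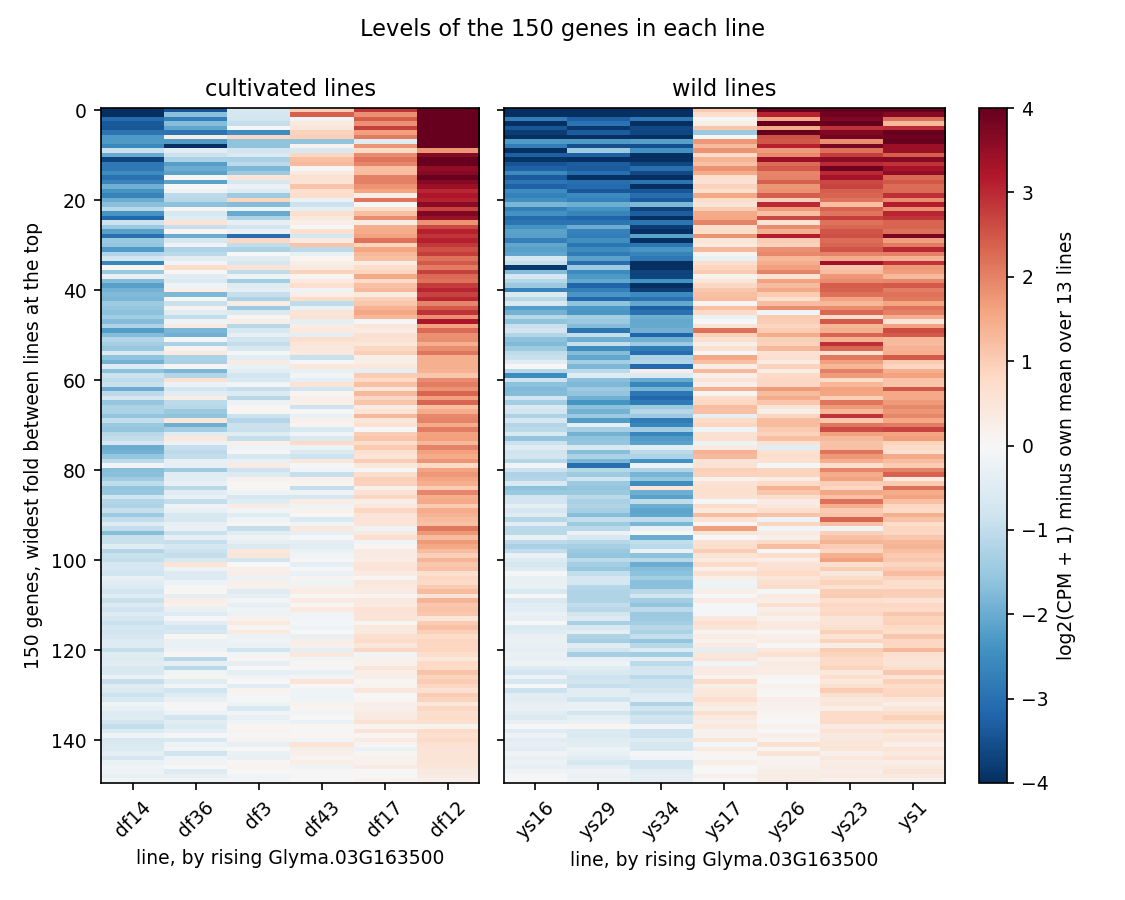
Levels of the 150 genes (rows, widest fold between lines at the top) in cultivated lines (left panel) and wild lines (right panel), each panel ordered by rising Glyma.03G163500. Colour is log2(CPM + 1) minus the gene's own mean over 13 lines, capped at 4 on either side. Low values gather in df14, ys16, ys29 and ys34, and high values in df12, ys23 and ys1.

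The rho of the 150 genes with the anchor ran from 0.863 to 0.989, with 83 above 0.90. It ran from 0.543 to 1 within the 6 cultivated lines (median 0.943) and from 0.643 to 0.964 within the 7 wild lines (median 0.857). A rho of at least 0.8 was reached by 135 of the 150 in cultivated lines, beside 4.02% of all genes. In wild lines 120 reached it, beside 2.91% of all genes, and 107 did in both groups. The choice used these same lines, so nothing is read from these counts. The boundary fell between close values. The last 10 genes inside shared a rho of 0.863, the lowest in mean level being Glyma.10G026400, Glyma.02G119300 and Glyma.01G061000 at 7.98, 6.20 and 5.27 CPM. The first 12 outside shared a rho of 0.857, led by Glyma.12G217400, Glyma.01G242800 and Glyma.04G024300 at 171, 75.8 and 39.5 CPM. In the other direction 62 of the 22065 genes had a negative rho at least as large in size. Between the 150 genes themselves the median rho over 11175 pairs was 0.890 and the lowest 0.577. These values share 13 libraries, and each gene was chosen for its rho with the same anchor, so nothing is read from them.

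The 7 other storage protein identifiers, which the choice left out, followed the anchor to different degrees. Glyma.10G246300 had a rho of 0.934, Glyma.10G037100 of 0.923, Glyma.20G148300 and Glyma.20G148400 of 0.907 each and Glyma.19G164900 of 0.874. These 5 would have been among the 150. Glyma.20G146200 had a rho of 0.709 and Glyma.20G148200 of 0.549, and both were scarce, at means of 6.21 and 4.08 CPM. Glyma.20G148300 and Glyma.20G148400 had nearly equal levels in every line, and reads of such near-identical copies may have been split between them.

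The fold between the highest and the lowest line varied greatly among the 150 genes. With lines under 3 counts set to 3 counts, it ran from 1.61 to 6853, with a median of 24.7, while the median over all 22065 genes was 2.71. A fold of at least 100 was seen for 42 of the 150 genes, and 0.934% of all genes had one. A fold of 10 to 100 was seen for 57, against 4.85% of all genes. At the other end 24 of the 150 varied less than 4-fold, 2 of them less than 2-fold. The choice by rank takes genes of any amplitude, but a rank relation is seen more easily in genes that vary, so nothing is read from this difference. For 12 of the 150 at least 1 line was under 3 counts, and the fold of these 12 is a lower bound.

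**Figure D3:**
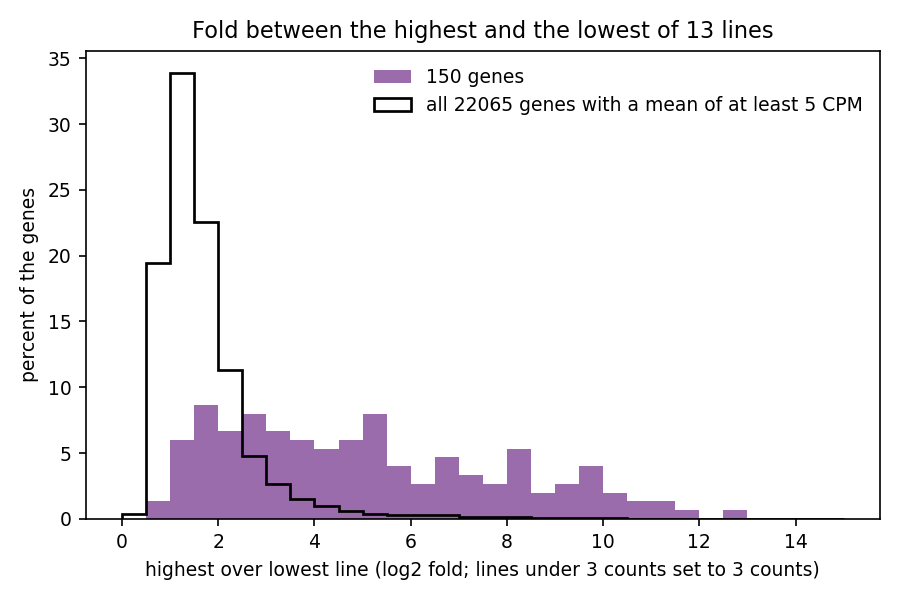
Distribution of the fold between the highest and the lowest of 13 lines (log2 scale) for the 150 genes (purple bars) and for all 22065 genes with a mean of at least 5 CPM (black outline), as percent of each set. The 150 genes spread from 1.61-fold to 6853-fold, while most of all genes lie below 4-fold.

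Glyma.08G116300, 1 of 6 identifiers on a list of other seed proteins, followed the anchor most closely (rho 0.989) and had the widest range. Among cultivated lines it stood at 0.437 CPM in df14, a median of 75.2 CPM and 2995 CPM in df12. Among wild lines it stood at 1.14 CPM in ys16, a median of 116 CPM and 1006 CPM in ys1. The groups overlapped, and its lowest and highest lines were both cultivated. Glyma.08G010800 (rho 0.967) was far less abundant, with 1.15, 4.02 and 28.2 CPM in the lowest, median and highest cultivated line and 1.32, 21.8 and 45.8 CPM in the wild lines.

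Glyma.12G213600 (rho 0.967) was at or near 0 counts in 5 lines. It had 0 counts in cultivated df14 and df36 and in wild ys16 and ys29, and 0.0602 CPM in ys34. It reached 123 CPM in df12 among cultivated lines and 79.7 CPM in ys1 among wild lines. Its level was at least 1070-fold higher in df12 than in df36. A count of 0 at these depths allows up to 3 counts, or 0.115 CPM in df36 and 0.215 CPM in ys29.

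Glyma.19G009100 (rho 0.962) kept a substantial level in every line. It stood at 42.7 CPM in df14, a median of 107 CPM and 479 CPM in df12 among cultivated lines, and at 30.7 CPM in ys34, a median of 190.4 CPM and 363 CPM in ys23 among wild lines. Glyma.04G247900 (rho 0.940) varied least of the 12 closest followers, at 357, 600.04 and 1314 CPM in the lowest, median and highest cultivated line and 449, 635 and 1165 CPM in the wild lines. Its range was 3.68-fold, so a gene of small amplitude could follow the order of the anchor as closely as one of large amplitude. Glyma.U020300 (rho 0.945) stood at 1.69, 11.6 and 187 CPM in cultivated lines and at 0.241, 41.3 and 173 CPM in wild lines. The other 6 of the 12 closest followers, with rho from 0.940 to 0.945, were Glyma.13G288100, Glyma.10G174400, Glyma.11G253300, Glyma.08G341500, Glyma.10G207100 and Glyma.10G193900.

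The 6 genes with the widest fold were Glyma.08G116300, Glyma.16G208900, Glyma.14G117700, Glyma.01G095000, Glyma.09G158500 and Glyma.13G347500. Glyma.16G208900 stood at 1.48, 93.3 and 1257 CPM in the lowest, median and highest cultivated line, and at 0.424, 72.4 and 649.9 CPM in wild lines. Glyma.14G117700 stood at 0.219, 6.72 and 582 CPM in cultivated lines and at 0.0718, 8.67 and 134 CPM in wild lines. Glyma.01G095000 stood at 1.26, 20.2 and 399 CPM in cultivated lines and at 0.339, 26.9 and 873 CPM in wild lines. The groups overlapped in each, and the highest line was df12 for Glyma.16G208900 and Glyma.14G117700 but ys23 for Glyma.01G095000.

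Counts were concentrated in a few of the genes. Of the summed mean level of 16264 CPM, 37.9% lay in the 5 most abundant genes and 55.7% in the 10 most abundant, while 119 of the 150 averaged at least 10 CPM, and 30 at least 100 CPM. The 3 most abundant were Glyma.08G341500, Glyma.08G341000 and Glyma.19G063400, with means over the 13 lines of 2112, 1509.8 and 1019 CPM. Levels per length were not available, so the order of abundance between genes is one of counts and not of transcripts.

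Glyma.08G341500 stood at 217 CPM in df14, a median of 1225 CPM and 6768 CPM in df12 among cultivated lines. Among wild lines it stood at 54.9 CPM in ys34, a median of 1735 CPM and 5313 CPM in ys1. Its neighbour in the numbering of chromosome 8, Glyma.08G341000, stood at 98.2, 639 and 3321 CPM in the lowest, median and highest cultivated line. In wild lines the values were 36.6, 978 and 6271 CPM. The highest line differed between the neighbours, df12 for Glyma.08G341500 and ys23 for Glyma.08G341000. Glyma.19G063400 stood at 124, 476 and 3871 CPM in cultivated lines and at 32.8, 971 and 2395 CPM in wild lines.

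Of the next most abundant genes, Glyma.16G071800 stood at 24.2, 292 and 3074 CPM in the lowest, median and highest cultivated line, and at 4.34, 314 and 1995 CPM in wild lines. Glyma.06G078700 stood at 61.5, 366 and 2442 CPM in cultivated lines and at 8.79, 476 and 1636 CPM in wild lines. Glyma.04G077600 stood at 60.6, 374 and 2472 CPM in cultivated lines and at 4.22, 437 and 1526 CPM in wild lines. These 3 shared their lowest line, ys34, their lowest cultivated line, df14, and their highest line, df12. Glyma.10G028300 stood at 6.01, 119.6 and 1807 CPM in cultivated lines and at 2.05, 229 and 1107 CPM in wild lines. The remaining 3 of the 10 most abundant were Glyma.02G012600, Glyma.04G247900 and Glyma.08G116300.

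Some of the 150 genes had neighbouring identifiers. Identifiers carry the chromosome and a running number, and 10 of the 150 genes formed 5 pairs whose numbers differ by at most 500. Pairs were not counted over all genes, so whether 5 is few or many is not known. Glyma.08G341000 with Glyma.08G341500, Glyma.08G342200 with Glyma.08G342300 and Glyma.13G347500 with Glyma.13G347600 were 3 of the pairs. Chromosome 13 held 19 of the 150 genes (12.7%), beside 7.09% of all genes with at least 5 CPM, and chromosome 8 held 14 (9.33%), beside 7.07%. These shares are descriptions. How reads that match several copies were counted, and whether strand was used, is unknown, so levels of neighbouring copies are uncertain.

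All 6 identifiers of a list of other abundant seed proteins were among the 150 genes. The list holds published identifiers for a Kunitz trypsin inhibitor, a seed lectin, the P34 protein and seed lipoxygenases, and the 6 are Glyma.08G116300, Glyma.08G341500, Glyma.02G012600, Glyma.13G347600, Glyma.13G347500 and Glyma.15G026300. Of all 22065 genes, 0.680% are among the 150. The list was written with earlier results on storage protein transcripts in these lines known. An oil list held 10 identifiers (desaturases, acyltransferases, an oleosin and transcription factors), of which 9 averaged at least 5 CPM. Glyma.17G053300, at a mean of 4.04 CPM, could not be chosen. Of the 10 oil identifiers 2 were among the 150, Glyma.10G278000 and Glyma.20G111000. Of 4 sugar identifiers (transporters and synthases of raffinose and stachyose) 0 were, and the 1 phytate identifier was not.

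Glyma.02G012600 stood at 33.3 CPM in df14, a median of 311 CPM and 3041 CPM in df12 among cultivated lines. Among wild lines it stood at 2.33 CPM in ys16, a median of 167 CPM and 2508 CPM in ys1. All 6 cultivated lines stood above the 3 lowest wild lines, which held 2.33 to 3.88 CPM, and the groups overlapped above that. Glyma.13G347500 stood at 1.77, 21.0 and 891 CPM in the lowest, median and highest cultivated line and at 0.551, 6.71 and 487 CPM in wild lines. Its neighbour Glyma.13G347600 was scarcer, at 0.158, 0.681 and 46.5 CPM in cultivated lines, and at 0, 4.59 and 33.4 CPM in wild lines. Glyma.15G026300 stood at 0.653, 19.4 and 682 CPM in cultivated lines and at 1.51, 67.1 and 391 CPM in wild lines. In each of these 4 genes df12 was the highest of all 13 lines.

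Both oil identifiers among the 150 genes had their lowest level in ys34 and their highest in df12. Glyma.20G111000 stood at 34.1, 151 and 849 CPM in the lowest, median and highest cultivated line, and at 3.25, 138 and 459 CPM in wild lines. Glyma.10G278000 stood at 2.40, 16.9 and 112 CPM in cultivated lines and at 0.301, 21.6 and 59.5 CPM in wild lines. The other 8 oil identifiers had rho from 0.313 to 0.830 with the anchor. The nearest to the 150 was Glyma.13G106100, in place 224 of the order by rho, and next was Glyma.20G196600 in place 272. The 4 sugar identifiers had rho from 0.0989 to 0.374 over all 13 lines. Within wild lines their rho ran from 0.286 to 0.857, and within cultivated lines from -0.543 to 0.429. The phytate identifier Glyma.11G238800 had a rho of 0.714 over all lines with a mean of 1213 CPM.

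**Figure D4:**
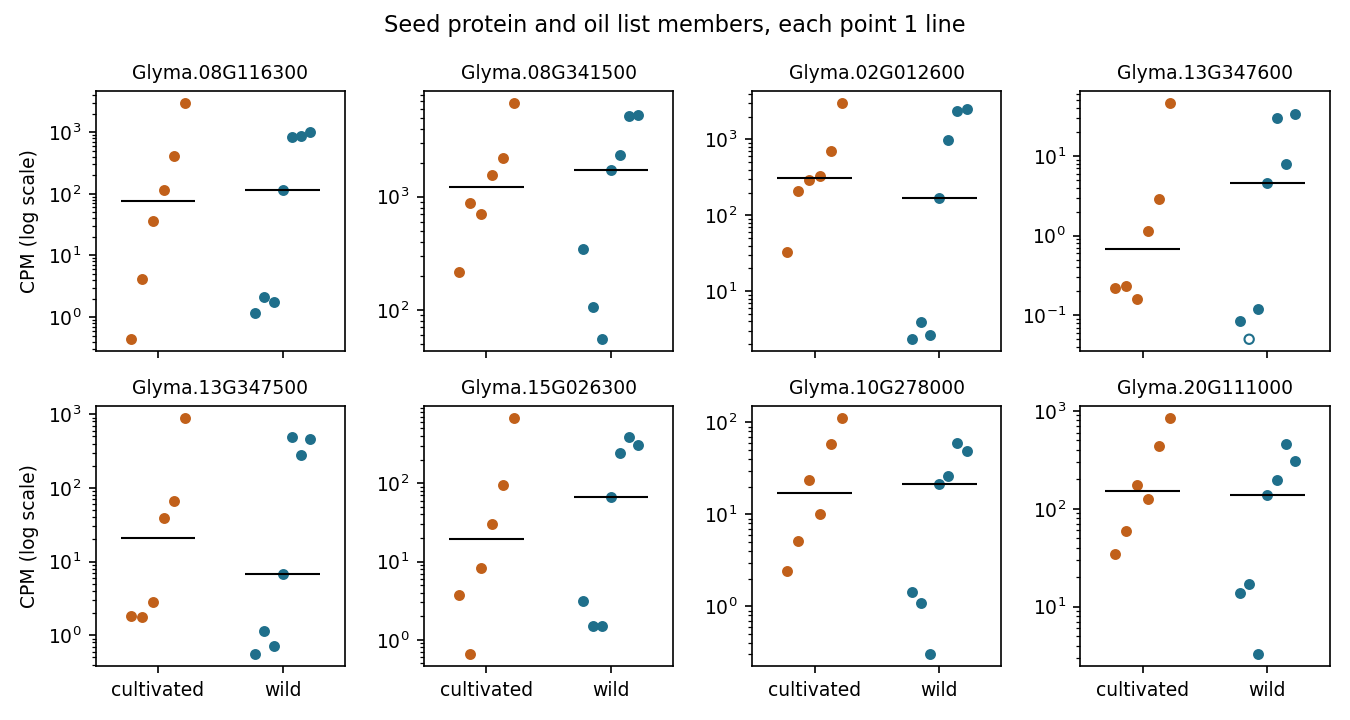
Levels (CPM, log scale) of the 8 genes on the seed protein and oil lists that are among the 150, in cultivated lines (left, orange) and wild lines (right, blue), 1 point per line in rising order of Glyma.03G163500, with the group median as a bar. An open circle marks 0 counts and is drawn at 0.05 CPM. In each panel the groups overlap, and the highest point is df12 at the right end of the cultivated lines.

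The group was not used to choose the 150 genes, and whether they differed between cultivated and wild seeds was tested in a fit over all genes. The choice still bears on this test. Lines of both groups lay at either end of the anchor, so genes that follow its order rank high and low within each group. A call between the groups was thus made unlikely by the choice. All 150 passed the filter on low counts, and none was called different. By edgeR's quasi-likelihood test 0 of the 150 had an adjusted p under 0.05, beside 0.0446% of all 31420 genes tested. With DESeq2, 0 of 149 were called, 1 having no adjusted p, beside 4.15% of all genes. The limma voom fit, which gave each line a quality weight, called 0. Without adjustment 0 of the 150 had an edgeR p under 0.05, beside 18.9% of all genes. The lowest edgeR adjusted p among the 150 was 0.407. Because the choice limits such calls, the counts among the 150, here and without df12 below, are not comparable with the shares of all genes. Nothing is read from that difference. A miss of the threshold does not show that the groups were alike, as standard errors of the log2 fold changes ran from 0.150 to 1.62, with a median of 0.653.

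The fitted log2 fold changes, cultivated over wild, were above 0 for 77 and below 0 for 73 of the 150 genes, with a median of 0.0035, beside -0.015 over all genes tested. They ran from -1.31 to 1.89. The balance of signs moved with single lines, most with df12. Without df12 the values were above 0 for 12 and below 0 for 138, with a median of -0.54, and 0 were called. In that fit 9 of the 150 had an unadjusted edgeR p under 0.05, beside 17.7% of all genes. The count above 0 was 113 of 149 tested without ys23, 107 of 149 without ys1 and 105 of 150 without df14. It was 54 of 150 without ys16 and 52 of 150 without ys29 or without ys34. Leaving out any line other than df12 gave medians from -0.13 to 0.20, and limma voom over all lines put 100 of the 150 above 0.

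The 3 genes with the smallest p had lower fitted levels in cultivated seeds. Glyma.08G116900 stood at 6.88, 17.3 and 46.7 CPM in the lowest, median and highest cultivated line, and at 6.52, 35.8 and 107 CPM in wild lines. Its log2 fold change was -0.96 (SE 0.610, edgeR adjusted p = 0.407). Glyma.01G168400 stood at 1.69, 4.14 and 20.8 CPM in cultivated lines and at 0.934, 11.9 and 43.6 CPM in wild lines, with a fitted difference of -1.22 on the log2 scale (SE 0.797, edgeR adjusted p = 0.419). Glyma.02G119300 stood at 0.461, 2.87 and 12.4 CPM in cultivated lines and at 1.31, 5.35 and 19.9 CPM in wild lines (log2 difference -1.11, SE 0.744, edgeR adjusted p = 0.431). The groups overlapped in each of the 3. The list members also showed no call, with log2 fold changes of -0.26 to 0.64 for the 6 seed protein identifiers, and of 0.70 and 0.85 for Glyma.10G278000 and Glyma.20G111000 (edgeR adjusted p from 0.659 to 0.998 over the 8). Of the oil, sugar and phytate identifiers outside the 150, edgeR called 0. DESeq2 called the sugar identifiers Glyma.15G049200 and Glyma.08G183500, singled out here after their values were seen, with adjusted p of 0.0418 and 0.0309. In edgeR their log2 fold changes were 1.48 and 0.95, with adjusted p of 0.156 and 0.148.

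Lines can also be compared at an equal level of the anchor. Cultivated df12 and wild ys1 lay close on the anchor, at 13103 and 11758 CPM, and the 150 genes summed to 50661 CPM in df12 and 34834 CPM in ys1. Cultivated df17 and wild ys17 stood at 1066 and 1434 CPM of the anchor, and the sums were 16710.4 CPM in df17 and 13235 CPM in ys17. Relative to the anchor, both pairs are ordered the other way by the summed level of the 8 storage protein identifiers. That level was 36073 CPM in df12 and 45901 CPM in ys1, and 13557 CPM in df17 and 9586 CPM in ys17. Its order was that of the sums of the 150 genes in df17 and ys17, but not in df12 and ys1. How closely the lines of a pair match thus depends on the measure. A further fit held the log2 CPM of the anchor as a term beside the group, with a common slope for both groups. No wild line lay between 7.17 and 1434 CPM of the anchor, so the comparison rests on that slope across the gap. In this fit the log2 fold change was above 0 for 114 of the 150 genes, with a median of 0.27, beside -0.0085 over all genes. Leaving out each line in turn gave between 105 and 123 above 0, of 149 or 150 tested. Without adjustment 43 of the 150 had an edgeR p under 0.05, beside 20.7% of all genes, and 1 was called, beside 0.293% of all genes. As the genes were chosen by their relation with the anchor, their scatter around it was part of the choice, and its bearing on these counts was not tested. Counts among the 150 and shares of all genes are thus not comparable, and nothing is read from the difference. Leaving out a line called 0 to 2 of the 150, while over all genes it gave between 10 calls (0.0321%, without ys1) and 119 calls (0.374%, without df3), beside 92 with all lines.

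The 1 called gene was Glyma.09G158500. It stood at 0.546, 18.7 and 431 CPM in the lowest, median and highest cultivated line, and at 0.144, 34.8 and 129 CPM in wild lines. It held 111 CPM in df17 against 34.8 CPM in ys17, and 431 CPM in df12 against 129 CPM in ys1. At an equal anchor level its log2 fold change was 1.82 (SE 0.305, edgeR adjusted p = 0.0320), while the group alone gave 1.11 (SE 1.38, edgeR adjusted p = 0.697). The gene was chosen for following the anchor, so its scatter in this fit, and with it this SE and p, was bound up with the choice. Nothing is read from the call. The call lay near the threshold of 0.05. It was lost without df14 (0.0536), df17 (0.0637), df36 (0.0595), ys16 (0.0621), ys1 (0.0688), ys29 (0.0617) or ys34 (0.0770), each value being the edgeR adjusted p. Over all lines left out in turn the adjusted p ran from 0.0197 to 0.0770 and the log2 fold change from 1.63 to 1.99.

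The steepness of the relation with the anchor was compared between the groups by an interaction term. By least squares within each group, the median slope of the 150 genes was 0.20 log2 CPM per log2 CPM of the anchor in cultivated lines and 0.29 in wild lines. The slope fitted by edgeR was lower in cultivated lines for 123 of the 150 genes, with a median difference of -0.060, beside -0.0014 over all genes. By edgeR 0 of the 150 slope differences were called, beside 0% of 31419 genes. Without adjustment 30 of the 150 passed 0.05 in edgeR, beside 3.31% of all genes. The limma voom fit called 1 of the 150. As the genes were chosen by their relation with the anchor over these same lines, the 2 shares are not comparable and nothing is read from them. On leaving out single lines the median difference ran from -0.097 without ys16 to -0.044 without ys34. Without ys16 the slope was lower in cultivated lines for 127 of the 150 and 57 had an unadjusted p under 0.05, beside 6.47% of all genes. It was lower for 136 of the 150 without df12, with a median of -0.091, and for 108 without df14, with a median of -0.045. The 150 genes share the same 13 libraries and 1 anchor, so their slopes are not independent of each other.

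The gene called by limma voom was Glyma.02G012600, whose least-squares slope was 0.43 in cultivated and 0.89 in wild lines (edgeR difference -0.49, SE 0.0757, edgeR adjusted p = 0.530, limma voom adjusted p = 0.0300). Its values at the low end were 33.3 CPM in df14 and 207 CPM in df36 among cultivated lines, and 2.33, 3.88 and 2.65 CPM in ys16, ys29 and ys34 among wild lines. Glyma.08G342200 had slopes of 0.17 and 0.79 (difference -0.70, SE 0.149, edgeR adjusted p = 0.996). It had 0 counts in ys16, ys29 and ys34, and 3.17 CPM in df14 and 9.91 CPM in df36. Its neighbour Glyma.08G342300 also stood lower in ys16, at 0.720 CPM, than in any cultivated line, where the lowest value was 32.1 CPM. Glyma.08G108000 had the opposite sign, with slopes of 0.32 in cultivated and 0.11 in wild lines (difference 0.20, SE 0.0552, edgeR adjusted p = 0.996).

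**Figure D5:**
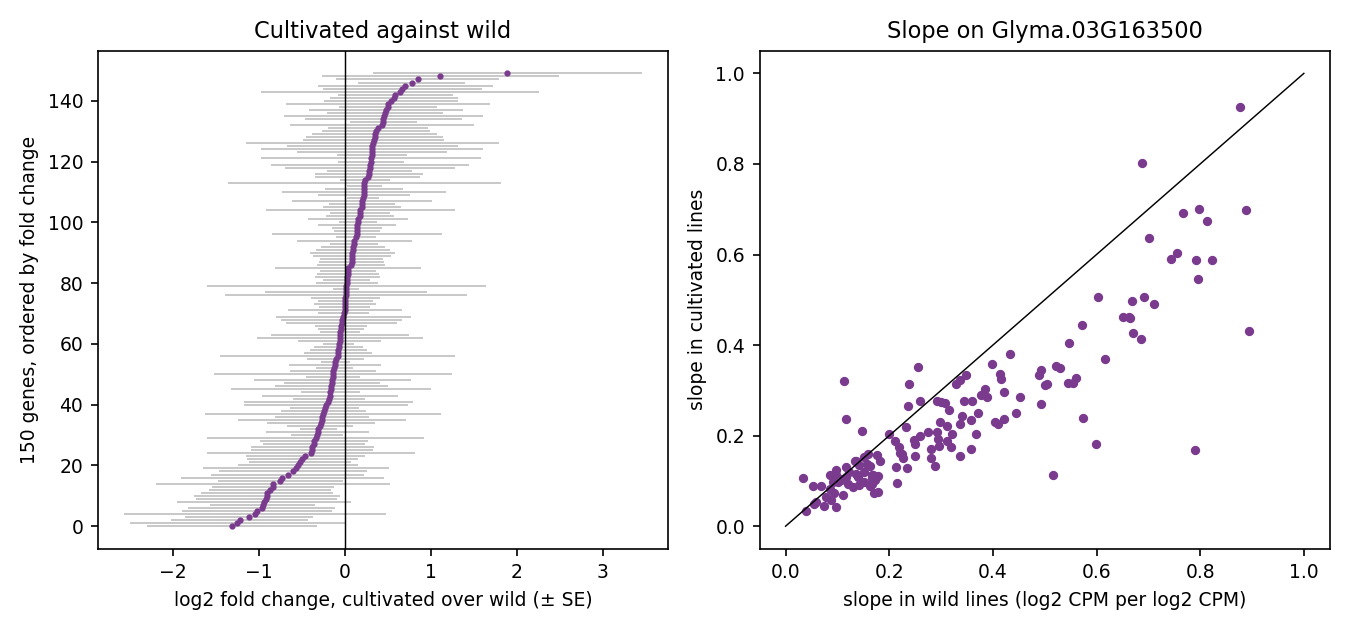
Left, fitted log2 fold change of each of the 150 genes, cultivated over wild, with its SE as a bar, ordered by fold change: the points run from -1.31 to 1.89 with 77 above 0 and 73 below. Right, slope of log2 CPM on log2 CPM of Glyma.03G163500 within cultivated lines (vertical axis) and within wild lines (horizontal axis), 1 point per gene, with a line where both are equal: most points lie below it.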

How the data were processed

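The authors deposited whole-number read counts per gene, with no normalization that the values show. Named without roles in the submitters' processing notes are edgeR, SAMtools, TopHat2 and Trim Galore 0.3.3. Counting tool, build and annotation: not given in the sources used here. All 13 columns were matched to lines by title. CPM are counts over the column sum; the change per doubling of the anchor used log2(CPM + 1), and slopes within a group log2 CPM with a prior count of 2.

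Tests ran on the deposited counts with edgeR 4.0.16 (R 4.3.3), with TMM factors, the default expression filter, quasi-likelihood F-tests and Benjamini-Hochberg adjustment over all genes at 0.05. The group was the only term, or the group with the anchor's log2 CPM (prior count 2), or their interaction. The anchor was left out of tests that use it as a term. A standard error is the estimate over the square root of F. Tests were checked on simulated counts in which every gene had the same spread between lines. That check does not show how often a difference would be missed at the spread seen here. Alternatives included RLE and upper-quartile factors, other filters, DESeq2 1.42.0, limma 3.58.1 voom with quality weights for the lines, and leaving out lines. Descriptions and figures used matplotlib 3.10.9, pandas 2.3.3 and scipy 1.17.1 with numpy 2.4.6 under Python 3.11.15.

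The genes and lists were chosen with earlier results of these data known. Named genes are the 12 with the highest rho, the 10 most abundant, the 6 with the widest fold, the 3 with the smallest p per test (or those called), 3 on each side of the limit, neighbouring identifiers and list members.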

Additional observations from a re-analysis of the deposited data

Results flagged for a closer look

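In cultivated lines df12 lay far above the other 5 in the summed level of the 150 genes, at 50661 CPM with the next line at 16710.4 CPM. The gap exceeded Dixon's 95% limit, which chance passes in about 1 of 20 groups. Over the 150 genes and their sum, 72 of 302 groups of lines (23.8%) passed it, and the line set apart was df12 in 64, ys23 in 6 and ys1 in 2. Over all 22065 genes the limit was passed by 6.73% in cultivated and 7.76% in wild lines. The genes share libraries and were chosen to follow Glyma.03G163500, which itself set df12 apart in cultivated lines with a gap of 0.919 of the range, where the limit is 0.625. The position of df12 is thus part of how the genes were chosen, and nothing is read from these counts.

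Among genes described above, df12 stood apart from the other cultivated lines in Glyma.08G116300 (2995 CPM), Glyma.08G341500 (6768 CPM), Glyma.08G341000 (3321 CPM), Glyma.19G063400 (3871 CPM), Glyma.02G012600 (3041 CPM), Glyma.16G071800 (3074 CPM), Glyma.04G077600 (2472 CPM), Glyma.06G078700 (2442 CPM), Glyma.10G028300 (1807 CPM) and Glyma.04G247900 (1314 CPM). It did so too in Glyma.16G208900 (1257 CPM), Glyma.13G347500 (891 CPM), Glyma.15G026300 (682 CPM), Glyma.14G117700 (582 CPM), Glyma.19G009100 (479 CPM), Glyma.09G158500 (431 CPM) and Glyma.01G095000 (399 CPM). Lower levels set apart in df12 were those of Glyma.U020300 (187 CPM), Glyma.12G213600 (123 CPM), Glyma.13G347600 (46.5 CPM), Glyma.08G010800 (28.2 CPM), Glyma.08G342200 (25.1 CPM), Glyma.01G168400 (20.8 CPM) and Glyma.02G119300 (12.4 CPM). Among wild lines, ys1 stood apart in Glyma.08G342300 (682 CPM) and Glyma.12G213600 (79.7 CPM), and ys23 in Glyma.01G095000 (873 CPM) and Glyma.14G117700 (134 CPM).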

How the results depend on the processing

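The choice of anchor moved the set of genes most. Of the 150 genes, 84 were found again with Glyma.19G164900 as the anchor, 88 with Glyma.10G037100, 96 with Glyma.20G148300 or Glyma.20G148400 and 17 with Glyma.20G146200, while Glyma.10G246300 gave 115 and the sum of the 8 storage protein identifiers 114. TMM scaling gave 121, a minimum of 1 CPM 107 and of 10 CPM 119, Pearson correlation 111 and Kendall's tau 136. Leaving out a line gave 117 to 141. The count of genes called between cultivated and wild seeds, 14, was 23 with upper-quartile factors, 25 without a filter, 1279 with DESeq2, 92 with the anchor as a term, and from 9 (without ys16 or ys1) to 32 (without df12) on leaving out a line. The count among the 150, 0, was 1 with the anchor as a term and 0 under every other alternative run. For the slope, limma voom called 1 gene, among the 150, and leaving out ys34 and df3 together called 1 gene, not among the 150; the other alternatives called 0 (edgeR). That joint omission, totals without the 8 top features, and the omission of lines at an equal anchor level were chosen after seeing the data. Among the 6 genes named for their tests no fold change or slope difference changed sign. Depth limits the genes at 0 counts. No paired analysis was possible, as the groups held different lines with 1 library each.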
